A study of Mus musculus with 2 samples.

Results

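The integrated stress response is the pathway by which cells lower general protein synthesis and switch on a rescue programme under stress. The genes described here are 10 of its components, found by their symbols among the 43629 Ensembl genes listed for Dicer_KO mouse embryonic stem cells (mESCs), and 10 of 10 were present. They are the kinases Eif2ak3 and Eif2ak4, the transcription factors Atf4 and Ddit3, and the genes Trib3, Chac1, Ppp1r15a, Asns, Psat1 and Sesn2, which are known as targets of ATF4 or act beside it. PolyA-selected RNA of Dicer_KO mESCs was sequenced in 2 libraries, which form 1 group and differ in passage. Replicate 1 came from cells at passage 7, and cells at passage 4 gave replicate 2. The cells carry a Dicer knockout on a 129/Ola background. They derive from the E14TG2a line, whose cells come from the blastocyst, and the study routinely kept its mESCs in serum with LIF, a cytokine that maintains pluripotency. The study made separate Dicer_KO lines with different deletions from single sorted cells, and which deletion each library carries is not stated in its labels. Line, deletion, passage and library therefore cannot be told apart. WT libraries were not analysed here, so all comparisons are between the Dicer_KO libraries, each of which stands alone at its passage. No test was possible, intervals cover counting error only, and differences are descriptions of these libraries. The genes, and the gene lists and cell type markers used below, were chosen with earlier results of these data known. Their shares beside those of all genes are therefore descriptions too.

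In the integrated stress response, 4 kinases phosphorylate the alpha subunit of the translation initiation factor eIF2, each under its own form of stress. Phosphorylated eIF2 blocks its exchange factor eIF2B, which lowers the translation of most mRNAs and favours that of a few, such as the mRNA of the bZIP transcription factor ATF4. ATF4 pairs with other bZIP proteins on C/EBP-ATF response elements (CARE) and activates genes of amino acid synthesis and transport, of the antioxidant defence and, with CHOP (the product of Ddit3), of cell death. Since ATF4 is controlled mainly at translation, the mRNA level of Atf4 is not a measure of its protein.

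Because ATF4 acts through CARE, the RefSeq promoter windows (GRCm38.p6, from 250 bases before to 50 after each annotated start) of the genes were searched for the CARE core TGATGNAA on both strands, where it reads TTNCATCA in reverse. The windows of 3 of the 10 genes hold it, against 4.51% of all 27025 genes with a window. They are shown here with the core in capitals, each 5′ to 3′ on the strand of its gene, since their genes are among the 5 described below as more than 2-fold apart between the libraries.
Chac1: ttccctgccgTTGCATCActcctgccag
Asns: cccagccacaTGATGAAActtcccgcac
Trib3: tagctcaggtTTACATCAgccgggcggg
The stretch of Chac1 lies at chr2:119351039-119351066 on the plus strand, with the core 193 to 186 bases before the start. That of Asns lies at chr6:7693215-7693242 on the minus strand, with the core 23 to 16 bases before the start. The Trib3 stretch is at chr2:152344029-152344056 on the minus strand, and its core lies 15 to 22 bases after the start. The windows of Atf4, Ddit3, Ppp1r15a, Psat1, Sesn2, Eif2ak3 and Eif2ak4 hold no such core, which says only that these letters are not in these stretches.

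Counts on genes summed to 41710122 in replicate 1 and 41566184 in replicate 2, and 3 counts correspond to 0.0691 and 0.0752 counts per M (CPM) after scaling by TMM, the normalization of edgeR used for every value here. Dicer1, the targeted gene, had 1343 counts in replicate 1 and 1510 in replicate 2, a log2 ratio of replicate 1 over replicate 2 of -0.29. Counts over the whole gene cannot show which exons were deleted. The cells carried the markers of pluripotent stem cells, 10 of 10 of which had at least 10 counts in both libraries. Their summed level was 9215 CPM in replicate 1 and 6395 CPM in replicate 2. By the mean of both libraries, levels were highest for Dppa5a (4601 and 2126 CPM) and Pou5f1 (899 and 1078 CPM). In replicate 1 Nanog (1094 and 657 CPM) stood above Pou5f1. The higher sum in replicate 1 came mainly from Dppa5a, since 6 of the 10 markers had a log2 ratio above 0 and 4 below it, with a median of 0.12. Of 8 markers of fibroblast feeder cells, 3 reached 10 counts in replicate 1 and 4 in replicate 2. Their sum was 26.1 and 18.8 CPM, Postn was at 0 in both libraries, and most of the sum came from Thy1 and Pdgfrb. Markers of the trophectoderm, the outer layer of the blastocyst, stood apart. The sum of 8 such genes was 451 CPM in replicate 1 and 94.0 CPM in replicate 2, mostly from the keratin genes Krt8 (8004 and 1370 counts) and Krt18 (7162 and 880). Both keratin genes lie on chromosome 15, which is described with Atf4. Their log2 ratios of 2.42 and 2.90 were above the median of that chromosome, 0.59. All 7 trophectoderm genes with a mean of at least 10 scaled counts were more than 2-fold higher in replicate 1. Among all 17731 genes past that filter the share was 14.2%. The 7 include Tfap2c on chromosome 2 (3742 and 1311 counts), while Cdx2, a defining factor, had 6 and 1 counts. Primitive endoderm markers summed to 60.4 and 43.9 CPM, with Col4a1 and Gata4 as the highest in counts. Neural markers summed to 75.6 and 124 CPM, with Nes and Tubb3 as the highest by the mean of both libraries. In bulk RNA, fewer cells of a type and less RNA per cell cannot be told apart, and the part of these markers in the results that follow was not tested.

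Of the 10 genes, 5 were more than 2-fold higher in replicate 1 than in replicate 2, namely Chac1, Trib3, Ddit3, Atf4 and Asns, and 0 were more than 2-fold higher in replicate 2. Among all 17731 genes with a mean of at least 10 scaled counts, 14.2% were more than 2-fold higher in replicate 1 and 7.14% were more than 2-fold higher in replicate 2. All 10 genes also averaged 100 counts or more, and for the 12996 genes at that level the shares were 9.83% and 4.17%. Beyond 1.5-fold there were likewise 5 of the 10 genes, all higher in replicate 1. The share of all genes tested was 23.4% on that side and 39.5% in either direction. The median log2 ratio of the 10 genes was 0.72, against 0.02 for all genes tested. Without Atf4, which lies on chromosome 15, the median of the other 9 was 0.42, an alternative chosen after seeing the data. The kinases Eif2ak3 and Eif2ak4, the phosphatase subunit gene Ppp1r15a and the serine synthesis gene Psat1 stayed within 2-fold, and Sesn2 was the single gene of the 10 with a higher value in replicate 2.

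**Figure D1:**
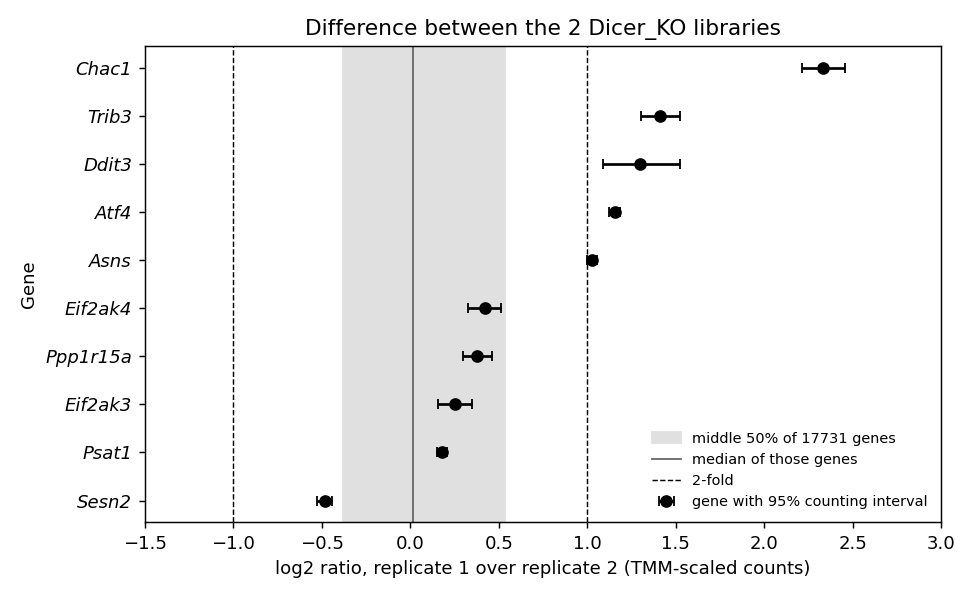
The x axis gives the log2 ratio of TMM-scaled counts of replicate 1 over replicate 2 and the y axis the 10 genes, ordered by ratio. Points carry 95% counting intervals, the grey band holds the middle 50% of the 17731 genes tested, and the dashed lines mark 2-fold. Chac1 is the farthest to the right at 2.33, and Sesn2 is the only point left of 0, at -0.48.

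The genes of the kinases that sense stress differed by less than 2-fold between the libraries. Eif2ak3 encodes PERK, the kinase in the membrane of the endoplasmic reticulum that is activated by unfolded proteins (chromosome 6, 70844515 to 70905245, plus strand). It had 2072 counts in replicate 1 and 1599 in replicate 2, or 47.7 and 40.1 CPM, and its log2 ratio was 0.25 (95% counting interval 0.16 to 0.35). The antisense gene Gm43292 covers 8.05% of its annotated exon bases, and how the counting treated strand is not given in the sources used here. Eif2ak4 encodes GCN2, the kinase that senses uncharged tRNAs when amino acids are short (chromosome 2, 118388618 to 118475234, plus strand). It had 2299 and 1578 counts, or 52.9 and 39.5 CPM, a log2 ratio of 0.42 (0.33 to 0.51). Both ratios were above the counting error and inside the middle 50% of all genes tested, which spans -0.38 to 0.53. The other kinases of eIF2 were at or below equal levels in replicate 1. Eif2ak1, which encodes the heme-regulated kinase HRI, had 2192 counts in replicate 1 and 2648 in replicate 2, a log2 ratio of -0.39. Eif2ak2, which encodes the kinase PKR that binds double-stranded RNA, had 2882 and 2672 counts, a log2 ratio of -0.01. Scaling by total counts, which moved the median of all genes from 0.02 to 0.13, put the ratio of Eif2ak2 above 0, as it did those of Chac2 and Slc7a6 given below.

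Atf4 was among the most strongly expressed genes of both libraries. It lies on chromosome 15 (80255184 to 80257541, plus strand) and had 26088 counts in replicate 1 and 10764 in replicate 2, or 601 CPM (593 to 608) and 270 CPM (265 to 275). Per kb of exon this was 255 and 114 CPM, above 99.2% and 97.8% of the genes tested in the respective library. The log2 ratio was 1.15 (1.12 to 1.19), a 2.23-fold higher level in replicate 1. Chromosome 15 as a whole was higher in replicate 1. The 679 other genes tested on it had a median log2 ratio of 0.59, and no other autosome had a median outside the range from -0.09 to 0.08. Of these 679 genes, 25.0% had a ratio above that of Atf4, against 11.6% of the genes tested on the other autosomes. Relative to the median of its own chromosome Atf4 was higher in replicate 1 by 0.56 on the log2 scale, and relative to the other autosomes by 1.15. On chromosome 15, 29.3% of the genes were more than 2-fold higher in replicate 1, against 13.8% on the other autosomes. The other 9 genes lie on other chromosomes, and 4 of these 9 were more than 2-fold higher in replicate 1.

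**Figure D2:**
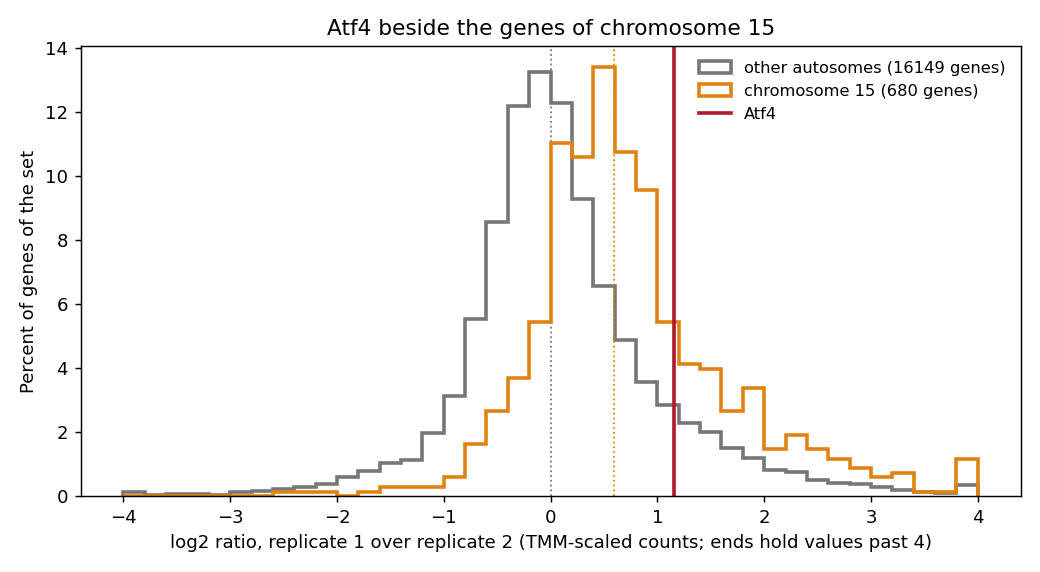
The x axis gives the log2 ratio of TMM-scaled counts of replicate 1 over replicate 2 and the y axis the percent of genes of each set, for 680 genes of chromosome 15 and 16149 genes of the other autosomes. Dotted lines mark the medians of both sets. The curve of chromosome 15 is shifted to the right, and Atf4 at 1.15 lies right of its median of 0.59.

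Ddit3 encodes CHOP, a bZIP factor induced by ATF4 that promotes cell death under lasting stress (chromosome 10, 127290774 to 127296288, plus strand). It had the fewest counts of the 10 genes, 648 in replicate 1 and 241 in replicate 2, or 14.9 CPM (13.8 to 16.1) and 6.04 CPM (5.30 to 6.85). Its log2 ratio was 1.30 (1.09 to 1.52). A later gene record of the same name shares 6.13% of its exon bases on the same strand, and Mars and Gm4189 overlap 4.73% on the other strand. Trib3 encodes a pseudokinase that is induced by ATF4 and CHOP and restrains ATF4 in turn (chromosome 2, 152337422 to 152344032, minus strand). It had 2636 and 909 counts, or 60.7 and 22.8 CPM, a log2 ratio of 1.41 (1.30 to 1.52).

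Chac1 differed most. Its product degrades glutathione, the main thiol antioxidant of the cell, and it lies on chromosome 2 (119351229 to 119354381, plus strand). It had 3639 counts in replicate 1 and 662 in replicate 2, or 83.8 CPM (81.1 to 86.5) and 16.6 CPM (15.3 to 17.9). This was a 5.04-fold higher level in replicate 1 and a log2 ratio of 2.33 (2.22 to 2.46), which 2.71% of all genes tested exceeded. Chac1 was the single gene of the 10 beyond 4-fold, where 5.65% of all genes tested lay in either direction and 4.10% on the side of replicate 1. Its paralogue Chac2, with 187 and 175 counts, had a log2 ratio of -0.03.

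The feedback gene Ppp1r15a encodes GADD34, the subunit that directs protein phosphatase 1 to eIF2 and ends the response (chromosome 7, 45522916 to 45526268, minus strand). It had 2875 counts in replicate 1 and 2029 in replicate 2, or 66.2 and 50.8 CPM, a log2 ratio of 0.38 (0.30 to 0.46). Ppp1r15b, the constitutive counterpart, had 11918 and 7835 counts and a log2 ratio of 0.48.

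The amino acid enzymes did not move as a pair. Asns encodes asparagine synthetase (chromosome 6, 7675169 to 7693254, minus strand) and had 29954 counts in replicate 1 and 13509 in replicate 2, or 690 CPM (682 to 697) and 338 CPM (333 to 344). Its log2 ratio of 1.03 was just past 2-fold, with a counting interval of 0.997 to 1.06 that includes 2-fold. Psat1 encodes phosphoserine aminotransferase of the serine synthesis pathway (chromosome 19, 15904678 to 15947337, minus strand) and had 20257 and 16440 counts, or 466 and 412 CPM. Its log2 ratio of 0.18 (0.15 to 0.21) was the smallest in size of the 10 genes, and 1.21% of the 50-base words of its longest transcript also occur in the gene Gm12611. Sesn2 encodes a leucine-binding inhibitor of mTORC1 that is a target of both ATF4 and p53 (chromosome 4, 132492032 to 132510501, minus strand). It had 8414 counts in replicate 1 and 10811 in replicate 2, or 194 CPM (190 to 198) and 271 CPM (266 to 276). The level was higher in replicate 2, with a log2 ratio of -0.48 (-0.53 to -0.44), beyond the counting error and within 2-fold.

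Per kb of exon, the order of the levels in replicate 1 was Atf4 (255 CPM per kb), Asns (252), Psat1 (110), Sesn2 (55.7), Chac1 (51.2), Trib3 (28.6), Ppp1r15a (22.5), Ddit3 (8.71), Eif2ak3 (7.92) and Eif2ak4 (7.10). In replicate 2 it was Asns (124), Atf4 (114), Psat1 (96.8), Sesn2 (78.0), Ppp1r15a (17.3), Trib3 (10.7), Chac1 (10.1), Eif2ak3 (6.65), Eif2ak4 (5.30) and Ddit3 (3.53). Neighbours whose counting intervals overlapped were Atf4 and Asns as well as Ddit3 and Eif2ak3 in replicate 1, and Trib3 and Chac1 in replicate 2. The place of Ddit3 depends on the length used, since by the longest transcript its mean was 10.8 CPM per kb, above the 9.72 of Eif2ak3 and the 8.73 of Eif2ak4. Thus Chac1 stood above Trib3 and Ppp1r15a in replicate 1 and below Ppp1r15a in replicate 2. As means over both libraries, Asns had 188 ± 90.8, Atf4 185 ± 99.2 and Psat1 103 ± 9.04 CPM per kb (SD, n = 2), and Chac1 had 30.7 ± 29.0.

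**Figure D3:**
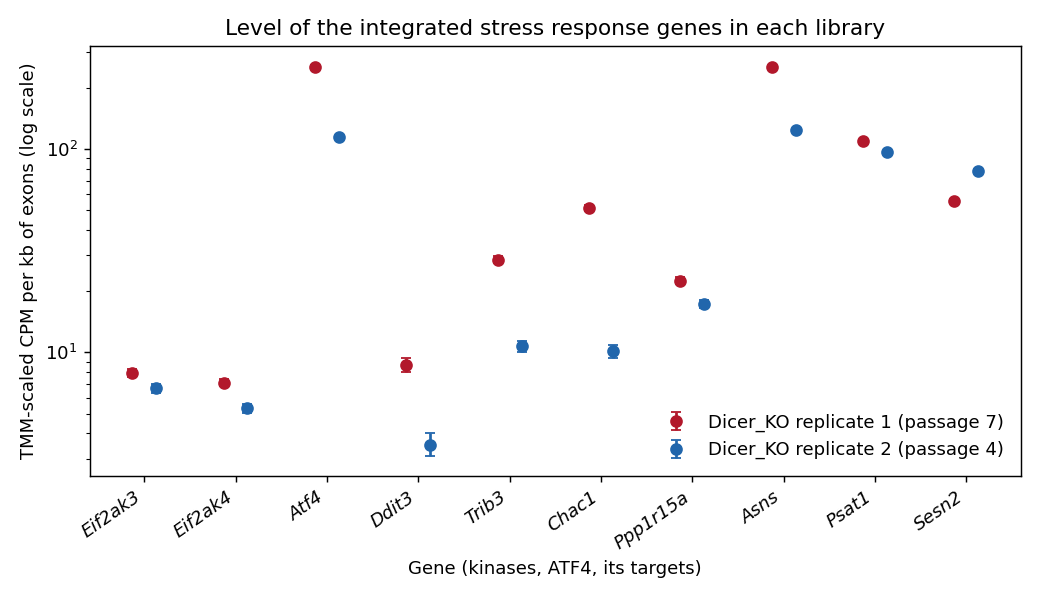
The y axis gives the TMM-scaled CPM per kb of exon on a log scale and the x axis the 10 genes, with the kinases on the left. Points are the libraries with 95% counting intervals, which are mostly smaller than the points. Replicate 1 lies above replicate 2 for 9 genes and below it for Sesn2.

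The signal from the kinases to ATF4 runs through eIF2 and eIF2B. Of 19 genes for eIF2, eIF2B and their regulators, 0 were beyond 2-fold in either direction, against 21.3% of all genes tested. All 19 averaged 100 counts or more, and among genes at that level the share was 14.0%. The median log2 ratio of the 19 was -0.03, or 0.09 with total counts. Beyond 1.5-fold there were 3 of them, Impact, Eif2b5 and Eif2s3x, all higher in replicate 2. This was near the 16.2% of all genes tested on that side, and in either direction the share of all genes was 39.5%. By the mean of both libraries, the highest levels per kb belonged to Eif2s2 (106 and 120 CPM per kb), a subunit of eIF2, and Ppp1ca (93.0 and 94.2), a catalytic subunit of protein phosphatase 1, although Eif2b5 (65.2 and 119 CPM per kb) stood above Ppp1ca in replicate 2. The lowest ratios were those of Impact, an inhibitor of GCN2 activation, with 6132 counts in replicate 1 and 11040 in replicate 2 (log2 ratio -0.97), and of Eif2b5, the catalytic subunit of eIF2B, with 7352 and 12360 (-0.87). Eif2s3x, a further subunit of eIF2, had 1204 and 1804 (-0.71). At the other end were Ppp1r15b and Nck1 (0.21).

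The bZIP genes that can pair with ATF4 or act beside it were higher in replicate 1. This list was chosen with earlier results of these data known, so its shares describe it and are no independent support. Of 12 listed genes, 11 passed the filter on low counts. All 11 had a ratio above 0, against 51.2% of all genes tested, and 7 were more than 2-fold higher in replicate 1, against 14.2%, with a median log2 ratio of 1.41. Beyond 4-fold there were 2, Cebpa and Cebpb, both higher in replicate 1, against 4.10% of all genes tested on that side. The missing gene was Batf3, with 7 and 0 counts. The 7 genes were Cebpa (142 counts in replicate 1 and 31 in replicate 2, log2 ratio 2.04), Cebpb (236 and 53, 2.01), Atf3 (719 and 174, 1.92), Jdp2 (1783 and 476, 1.78), Fos (2838 and 877, 1.57), Atf5 (4191 and 1448, 1.41) and Jun (2209 and 982, 1.05). Fos and Jun are immediate early genes and respond to many signals besides this pathway. Cebpg, a frequent partner of ATF4, had a log2 ratio of 0.82, and Nfe2l1 had 0.48. Nfe2l2, which encodes the antioxidant regulator NRF2, had 0.10 and Cebpd had 0.07. Nfe2l1 (69.6 and 49.9 CPM per kb) and Nfe2l2 (49.9 and 46.5) had the highest levels.

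Genes of amino acid and one-carbon synthesis were mostly higher in replicate 1, by small amounts. Of 14 genes, 13 had a ratio above 0, against 51.2% of all genes tested, and the median log2 ratio was 0.46. Only 2 of the 14 were more than 2-fold higher in replicate 1, a share near the 14.2% of all genes tested. All 14 averaged 100 counts or more, and among genes at that level the share was 9.83%. Beyond 1.5-fold there were 4, all higher in replicate 1, against 23.4% of all genes tested on that side. The genes beyond 2-fold were Aldh1l2, a mitochondrial folate enzyme, with 1177 counts in replicate 1 and 309 in replicate 2 (log2 ratio 1.80), and Pycr1, which completes proline synthesis, with 3289 and 1447 (1.06). The counting interval of Pycr1, 0.97 to 1.15, includes 2-fold. Aldh18a1, which starts proline synthesis, had 0.79 and Psph, which follows Psat1 in serine synthesis, had 0.64. Got1 (-0.18) and Cbs (0.03) were lowest. Cth (128 and 96.5 CPM per kb) and Got1 (80.7 and 91.3) had the highest mean levels, although Shmt2 (91.1 and 76.4) stood above Got1 in replicate 1.

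Among 13 amino acid transporters, 11 had a ratio above 0, against 51.2% of all genes tested, with a median log2 ratio of 0.49. More than 2-fold higher in replicate 1 were 2 of the 13, a share near the 14.2% of all genes tested. All 13 averaged 100 counts or more, and among genes at that level the share was 9.83%. Beyond 1.5-fold in either direction there were 7, against 39.5% of all genes tested. Slc7a11, the cystine importer that feeds glutathione synthesis, had 330 counts in replicate 1 and 76 in replicate 2 (log2 ratio 1.98). Slc6a9, a glycine transporter, had 1886 and 771 (1.17). The neutral amino acid transporters Slc1a4 and Slc1a5 had 0.82 and 0.80, and Slc38a2, with the highest mean level (105 and 74.9 CPM per kb), had 0.49. In replicate 2 the highest level was that of Slc7a3 (48.1 and 90.4 CPM per kb). Slc38a1, Slc38a2 and Slc1a3 of this list lie on chromosome 15, and their ratios of 0.63, 0.49 and 0.69 were near the median of that chromosome. Slc7a3, a transporter of arginine and lysine, was lowest at -0.91 with 7903 and 13648 counts, and Slc7a6 had -0.04.

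Many cytosolic tRNA synthetases are known targets of ATF4. Of 20 such genes, 0 were beyond 2-fold, against 21.3% of all genes tested. All 20 averaged 100 counts or more, and among genes at that level the share was 14.0%. A ratio above 0 was found for 12 of the 20, against 51.2% of all genes tested, and the median log2 ratio was 0.03. Tars, on chromosome 15, had 0.62 and Nars 0.51, whereas Farsa and Farsb, the subunits of the phenylalanine enzyme, had -0.40 and -0.39. Gars (198 and 162 CPM per kb) and Nars (150.5 and 106) had the highest levels.

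The widest differences were found in the list named stress outputs of ATF4 and CHOP. It also holds genes such as Chac2, the paralogue of Chac1, and whether ATF4 or CHOP drives its genes in these cells was not tested. Of 23 genes, 8 were more than 2-fold higher in replicate 1 and 0 in replicate 2, against 14.2% and 7.14% of all genes tested, with a median log2 ratio of 0.41. Beyond 4-fold there were 4, all higher in replicate 1, against 4.10% of all genes tested on that side. The counting intervals of Vegfa (1.98 to 2.17) and Gdf15 (1.79 to 2.24) include 4-fold, and that of Stbd1 (0.45 to 2.83) includes 2-fold. Fgf21, a secreted stress hormone, had 190 counts in replicate 1 and 7 in replicate 2, a log2 ratio of 4.46. Vldlr, a lipoprotein receptor, had 1418 and 197 (2.72), and Vegfa, an angiogenic factor, had 5186 and 1133 (2.07). Gdf15, a secreted stress cytokine, had 873 and 199 (2.01), and Ddit4, an inhibitor of mTORC1, had 4545 and 1192 (1.81). Herpud1, a factor of protein degradation at the endoplasmic reticulum, had 2529 and 688 (1.75), the small chromatin protein gene Nupr1 had 3370 and 1060 (1.55), and Stbd1 had 29 and 9 (1.47). The next were Gpt (0.62), on chromosome 15, and Ero1l (0.55), and Trib1, also on chromosome 15, had 0.27. Trib2 (-0.82) and Cdsn (-0.54) were lowest, and Eif4ebp1 (102 and 86.8 CPM per kb) and Sqstm1 (60.0 and 53.4) had the highest levels.

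The other branches of the unfolded protein response act through ATF6 and XBP1 and not through eIF2. Of 18 genes listed for these branches, 0 were beyond 2-fold, against 21.3% of all genes tested, with a median log2 ratio of 0.07. Herpud1 (1.75) was listed with the stress outputs and is not among the 18. All 18 averaged 100 counts or more, and among genes at that level the share beyond 2-fold was 14.0%. Beyond 1.5-fold there were 4, all higher in replicate 1, a share near the 23.4% of all genes tested on that side. They were Ern1, Sel1l, Derl3 (0.65) and Creld2 (0.63), the last on chromosome 15. Calr (328 and 302 CPM per kb) and Hsp90b1 (241 and 234), both chaperones of the endoplasmic reticulum, had the highest levels and log2 ratios of 0.12 and 0.04. Hspa5, which encodes the chaperone BiP and was named for its role after its values were seen, had 31213 counts in replicate 1 and 31871 in replicate 2 (-0.15). Ern1, the sensor that splices Xbp1 mRNA, had the highest ratio at 0.82 from 922 and 481 counts, followed by Sel1l at 0.70, while Manf and Dnajb11 had -0.51 and -0.45.

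**Figure D4:**
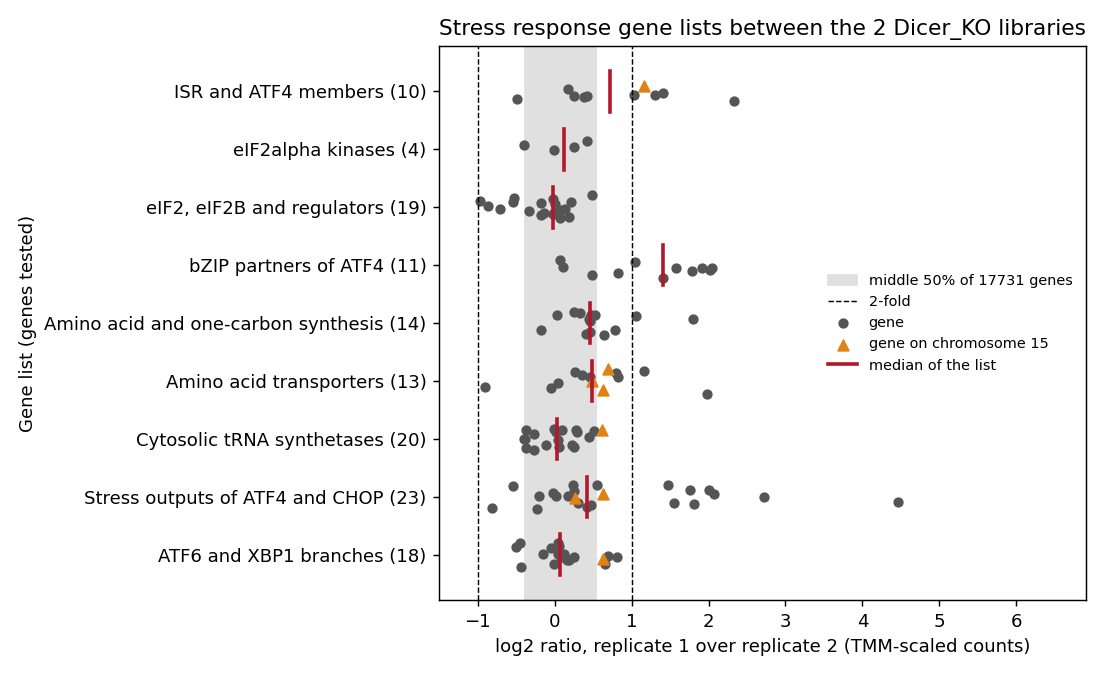
The x axis gives the log2 ratio of TMM-scaled counts of replicate 1 over replicate 2 and the y axis the gene lists, with the number of genes tested. Points are genes, triangles are genes on chromosome 15, red bars are list medians, and the grey band holds the middle 50% of the 17731 genes tested. The median of the bZIP genes, 1.41, lies beyond 2-fold, and those of the tRNA synthetases and of the ATF6 and XBP1 branches, 0.03 and 0.07, lie near 0.

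The CARE core was also searched in the promoter windows of the pathway genes. It was held by 4 of the 19 stress outputs with a window, by 2 of 11 bZIP genes, by 2 of 11 genes of amino acid and one-carbon synthesis, by 2 of 9 transporters, by 5 of 13 tRNA synthetases, by 1 of 14 genes for eIF2, eIF2B and their regulators, by 0 of 4 kinases and by 0 of 15 genes of the ATF6 and XBP1 branches. The sequences of the genes beyond 2-fold are shown, with the core in capitals and each on the strand of its gene, because they differed between the libraries as Chac1, Asns and Trib3 did.
Fgf21: gacccccccaTTGCATCAtccgtccagg
Vldlr: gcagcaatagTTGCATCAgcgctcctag
Herpud1: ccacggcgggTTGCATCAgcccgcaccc
Nupr1: aagggccagaTTGCATCAgacagggctt
Atf3: cttctcgcacTTGCATCAccaagtccgc
Jdp2: tagccggggcTGATGCAAcccgtcccgc
Pycr1: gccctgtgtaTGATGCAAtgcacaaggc
Slc7a11: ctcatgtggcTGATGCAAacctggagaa
They lie at chr7:45615612-45615639 (Fgf21, minus strand), chr19:27216810-27216837 (Vldlr, plus), chr8:94386307-94386334 (Herpud1, plus), chr7:126625563-126625590 (Nupr1, minus), chr1:191183426-191183453 (Atf3, minus), chr12:85599373-85599400 (Jdp2, plus), chr11:120643834-120643861 (Pycr1, minus) and chr3:50443662-50443689 (Slc7a11, minus). Slc7a11 holds a further core 47 to 40 bases before its start. A core in the window did not go with a difference in every list. The synthetase genes that hold it were Aars, Gars, Iars, Tars and Yars, with log2 ratios of 0.10, 0.29, 0.02, 0.62 and 0.23. Slc1a4 also holds it (0.82), and the holders Eif2s3x (-0.71) and Got1 (-0.18) were lower in replicate 1. The shares that follow cover only the tested genes with a unique symbol and a promoter window under it. Of those with the core, 73 of 338 (21.6%) were more than 2-fold higher in replicate 1. Of those without it, the share was 1665 of 11650 (14.3%), and the medians were 0.15 and 0.03. Among those with the core outside the pathway lists, the share was 62 of 319 (19.4%). A match of these letters is no evidence that ATF4 binds there, and no test was made.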

How the data were processed

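Per the labels and the methods of the study, polyA RNA was sequenced on an Illumina HiSeq instrument from stranded TruSeq libraries. After trimming with Trimmomatic, the authors mapped the reads to mm10 with STAR, keeping reads with many hits, and used featureCounts to assign them to Ensembl genes, with reads in regions of overlap left out (STAR 2.4.2a and featureCounts 1.4.5-p1 per the submitters' processing notes). What was deposited are raw counts per gene, 1 library per file. The treatment of strand and of reads with several alignments by featureCounts is not given in the sources used here.

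Counts were scaled by the TMM method of edgeR (4.0.16, R 4.3.3) over all genes. Log2 ratios used a pseudocount of 1, and genes with a mean of at least 10 scaled counts were called tested. Intervals are 95% exact Poisson intervals for levels and exact binomial (Clopper-Pearson) intervals for ratios (scipy 1.17.1), and cover counting error only. Both libraries belong to 1 group, so no count test between groups could be made. Positions and exon lengths came from GENCODE M21 (GRCm38), which held 42548 of the 43629 identifiers, and all 176 entries of the lists were matched. Promoter windows came from RefSeq. The steps were tested on simulated data.

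The genes, lists and marker classes were chosen with earlier results of these data known. Genes of each list were named if beyond 2-fold, if among the 2 highest or 2 lowest ratios of the rest, or if among the 2 highest levels per kb, and the 2 marker genes with the most counts of each class were named. Chac2, Cdx2, Tfap2c, Nanog, Hspa5, Shmt2 and Derl3 were named in addition, after their values were seen. So were the list genes with a promoter core or on chromosome 15. The alternatives were DESeq2 size factors (1.42.0), total counts, TMM factors from genes outside chromosome 15, a pseudocount of 0.1, other count minimums and folds, the longest transcript as length, and leaving out each replicate.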

Additional observations from a re-analysis of the deposited data

How the results depend on the processing

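No paired analysis was possible because the libraries make up 1 group, with nothing to pair it to. The 5 genes beyond 2-fold numbered 5 under each scaling, filter and the 1.5-fold threshold, 1 at 4-fold (Chac1), and 4 when genes of chromosome 15 were left out, an alternative chosen after seeing the data. Genes beyond 2-fold between the libraries numbered 3779, but 2311 and 1819 with a mean of at least 50 and 100 counts, 7934 with no filter, 7006 at 1.5-fold and 1002 at 4-fold, as fewer or more genes could pass. Scaling by total counts moved the median log2 ratio of all genes from 0.02 to 0.13 and raised all ratios alike, so that Asns had 1.14 and Sesn2 -0.37. No ratio of the 10 genes changed sign in 40 values under 4 alternatives, and 8 left their counting interval, all with total counts. The distance of Atf4 from the median of chromosome 15 lay between 0.56 and 0.59. Leaving out a replicate returns the level in the other library and carries no test. Depth limits little here, since the lowest count of the 10 genes was 241.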
